A study of Mus musculus with 12 samples.

Results

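Integrins are the cell surface receptors, each made of 1 alpha and 1 beta chain, by which cells hold on to the matrix around them, and laminins are the 3-chain proteins of the basement membrane to which several of them bind. The genes described here are all those that carry a symbol of an integrin alpha or beta chain (Itga, Itgb) or of a laminin alpha, beta or gamma chain (Lama, Lamb, Lamc) and have a probe set of that symbol alone. Names of integrin-binding proteins, such as Itgb1bp1 and Itgb3bp, were left out. This gave 38 probe sets for 37 genes, 27 integrin and 10 laminin chains, of 35512 probe sets in all, of which 21789 carry 1 symbol and stand for 19938 genes. Itgad is the one gene with 2 probe sets.

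The study asked how epidermal stem cells differ with the state of their circadian clock, and measured RNA of sorted mouse dorsal skin cells on 12 whole-transcript arrays, with 4 groups of 3. The bulge holds the hair follicle's stem cells, and those analysed came from Per1-Venus mice aged 18 to 19 days, in which a fluorescent protein reports the clock gene Per1. Bulge cells were gated as alpha6 bright and CD34+ and then parted into clock-positive (bright Venus) and clock-negative (dim Venus) cells, and about 20 mice were pooled for a sample. The other 6 arrays hold basal cells of the interfollicular epidermis (IFE) of mice at 1 year of age, wild type in 3 samples and, in the other 3, lacking Bmal1 in the epidermis (KO), with 5 mice pooled for a sample. Bmal1, which the array lists as Arntl, drives the clock together with Clock. The labels of the clock-negative cells also name the Venus-high gate, so the groups follow the titles and the series design. Per1 itself was higher in clock-positive cells by 0.51 ± 0.07, without overlap (limma adjusted p = 0.000195), the direction the titles give. The promoter that drives the knockout, the strain and the gate used for IFE cells are not given in the sources used here. The labels record no treatment in any group. Alpha6 integrin protein, the product of Itga6, served as a sort marker of the bulge cells, so the Itga6 level there was taken in cells already chosen for it.

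Integrins bind matrix outside the cell and, through talin and kindlin on the beta tail, actin inside it; the alpha6 beta4 pair is the exception and binds keratin filaments in hemidesmosomes. In basal epidermis, alpha6 beta4 and alpha3 beta1 hold the keratinocyte to the laminin that holds the Lama3 and Lamb3 chains, and the hair follicle basement membrane also holds laminin with the Lama5 chain. Other pairs bind collagen, fibronectin or latent TGF-beta, and a separate set is the hallmark of leukocytes and platelets.

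All values are log2 intensities, so a difference of 1 is a 2-fold change. Bulge and IFE arrays were filled for different numbers of probe sets (34760 and 28853) and appear to have been normalized apart, so levels are compared within a set. Array medians in the bulge were 6.82 to 6.84 in clock-positive and 6.94 to 7.01 in clock-negative samples, and the SD over probe sets was 2.00 to 2.02 against 1.88 to 1.91. Keratinocyte identity was plain: Krt5 averaged 12.53 and 12.52 in the clock-positive and clock-negative bulge and 13.62 and 13.59 in KO and wild-type IFE. Cd34, the bulge marker of the sort, averaged 10.97 and 9.52 in the bulge groups against 6.49 and 6.60 in KO and wild-type IFE. All 12 bulge stem cell markers were called higher in clock-positive cells, beside 45.2% of all genes tested, so the groups differ in these markers as well as in Venus. Of 7 basal keratinocyte markers 4 rose and 0 fell there as deposited. Of 8 differentiated keratinocyte markers 1 rose and 3 fell, beside 18.3% of all genes called lower. In KO IFE 0 of either list were called, with median changes of -0.04 and -0.38. The part of keratinocyte state in the results below was not tested. The targeted gene Arntl measured 9.85, 9.60 and 9.55 in KO and 9.27, 9.47 and 9.34 in wild-type IFE. The KO arrays were higher without overlap, by 0.30 ± 0.12 (SE; limma adjusted p = 0.530), a difference that did not pass the test. A loss of Arntl RNA in KO is thus not seen in these values, and which exons the probe set reads was not analysed here. The clock-related gene Dbp measured 8.10, 7.53 and 7.32 in KO and 8.85, 9.71 and 9.86 in wild-type IFE. It was lower in KO without overlap, by 1.83 ± 0.29, and did not pass (limma adjusted p = 0.0663). Per1 was lower in KO by 0.51 ± 0.33, with overlap (limma adjusted p = 0.844).

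Promoter sequences were available for 24 of the 37 genes, in RefSeq windows of build GRCm38.p6 that run from 250 bases before to 50 bases after a gene's start. The 200 bases before the start are shown for 6 genes in the table, the 4 with the largest called rises and the 2 with the largest called falls in the bulge, to show what stands where proximal clock motifs were searched. The printed stretch of Lamb3 belongs to the first of its 2 windows. They lie, in the order printed, at chr15:103366792-103366991 on the minus strand, chr12:119238277-119238476 on the minus strand, chr1:193301794-193301993 on the plus strand, chr13:115101965-115102164 on the minus strand, chr15:102231936-102232135 on the minus strand and chr16:96443615-96443814 on the minus strand. Each is read 5′ to 3′ in the direction of the gene, and capitals mark matches to the motifs searched.
Itga5: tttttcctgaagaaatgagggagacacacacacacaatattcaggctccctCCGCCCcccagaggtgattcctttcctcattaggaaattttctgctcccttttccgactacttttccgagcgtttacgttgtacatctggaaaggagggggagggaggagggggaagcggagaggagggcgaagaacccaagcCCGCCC
Itgb8: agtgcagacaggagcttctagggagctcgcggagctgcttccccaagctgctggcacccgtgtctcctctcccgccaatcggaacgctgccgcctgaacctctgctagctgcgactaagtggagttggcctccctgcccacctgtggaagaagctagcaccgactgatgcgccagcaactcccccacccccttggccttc
Lamb3: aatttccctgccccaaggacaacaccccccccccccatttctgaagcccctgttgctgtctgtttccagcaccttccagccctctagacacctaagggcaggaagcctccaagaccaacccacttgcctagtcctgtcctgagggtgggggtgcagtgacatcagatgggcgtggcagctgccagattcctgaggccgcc
Itga1: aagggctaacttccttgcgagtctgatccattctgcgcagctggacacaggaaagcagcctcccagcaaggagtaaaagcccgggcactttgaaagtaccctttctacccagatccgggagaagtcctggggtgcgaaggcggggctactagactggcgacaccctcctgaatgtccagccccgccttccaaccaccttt
Itgb7: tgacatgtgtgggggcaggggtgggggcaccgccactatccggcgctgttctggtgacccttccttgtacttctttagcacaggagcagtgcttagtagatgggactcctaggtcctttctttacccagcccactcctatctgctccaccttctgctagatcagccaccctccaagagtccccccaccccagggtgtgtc
Itgb2l: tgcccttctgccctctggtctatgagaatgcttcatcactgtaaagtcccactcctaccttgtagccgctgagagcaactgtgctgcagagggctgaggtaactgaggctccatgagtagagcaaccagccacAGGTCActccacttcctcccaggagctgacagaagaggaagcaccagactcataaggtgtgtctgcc

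Itga5, Itgb8, Lamb3 and Itga1 rose in clock-positive cells, and Itgb7 and Itgb2l fell. The E-box CACGTG, the letters bound by the BMAL1 and CLOCK pair, stood on either strand in the window of 0 of 24 integrin and laminin genes, beside 8.09% of 27025 genes in the table. The variant CACGTT was found in Itga9 alone (5.44% of all genes), and the D-box TTANGTAA in none of them (2.72%). AGGTCA, the core of the element read by ROR and REV-ERB receptors, stood in Itgb2l alone, where it is the capital run printed above (18.1%). The GC box GGGCGG, whose reverse appears as CCGCCC at 2 places in Itga5, was in the windows of 11 of the 24 genes (38.2%), and the AP-1 letters TGANTCA were in Itga3, Itga9 and Itgax (8.97%). These are matches of letters in 300 bases, and a window without a match says nothing about binding elsewhere in the gene.

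In the bulge, 32 of the 37 genes were bright enough to be tested. The largest rises were those of Itga5, Itgb8, Lamb3 and Itga1, and the largest fall was that of Itgae. With limma, 15 genes passed as higher (46.9% of 32), beside 45.2% of the 13956 genes tested, so that share lies near the background. As lower, 12 passed (37.5%), beside 18.3% of all genes, and as changed in either direction 27 (84.4%), beside 63.5%. By class, 10 of 23 integrins and 5 of 9 laminins rose, and 10 integrins and 2 laminins fell. The median change was 0.11 over the 32 genes, from -0.78 to 0.71, beside 0.15 over all genes. All 3 clock-positive values lay above all 3 clock-negative values for 16 genes, beside 50.1% of all genes tested, and below them for 12, beside 19.1%. A fold of 1.5 was reached by 4 of the rises (12.5% of 32, beside 5.12% of all genes) and by 1 of the falls (3.12%, beside 2.11%).

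**Figure D1:**
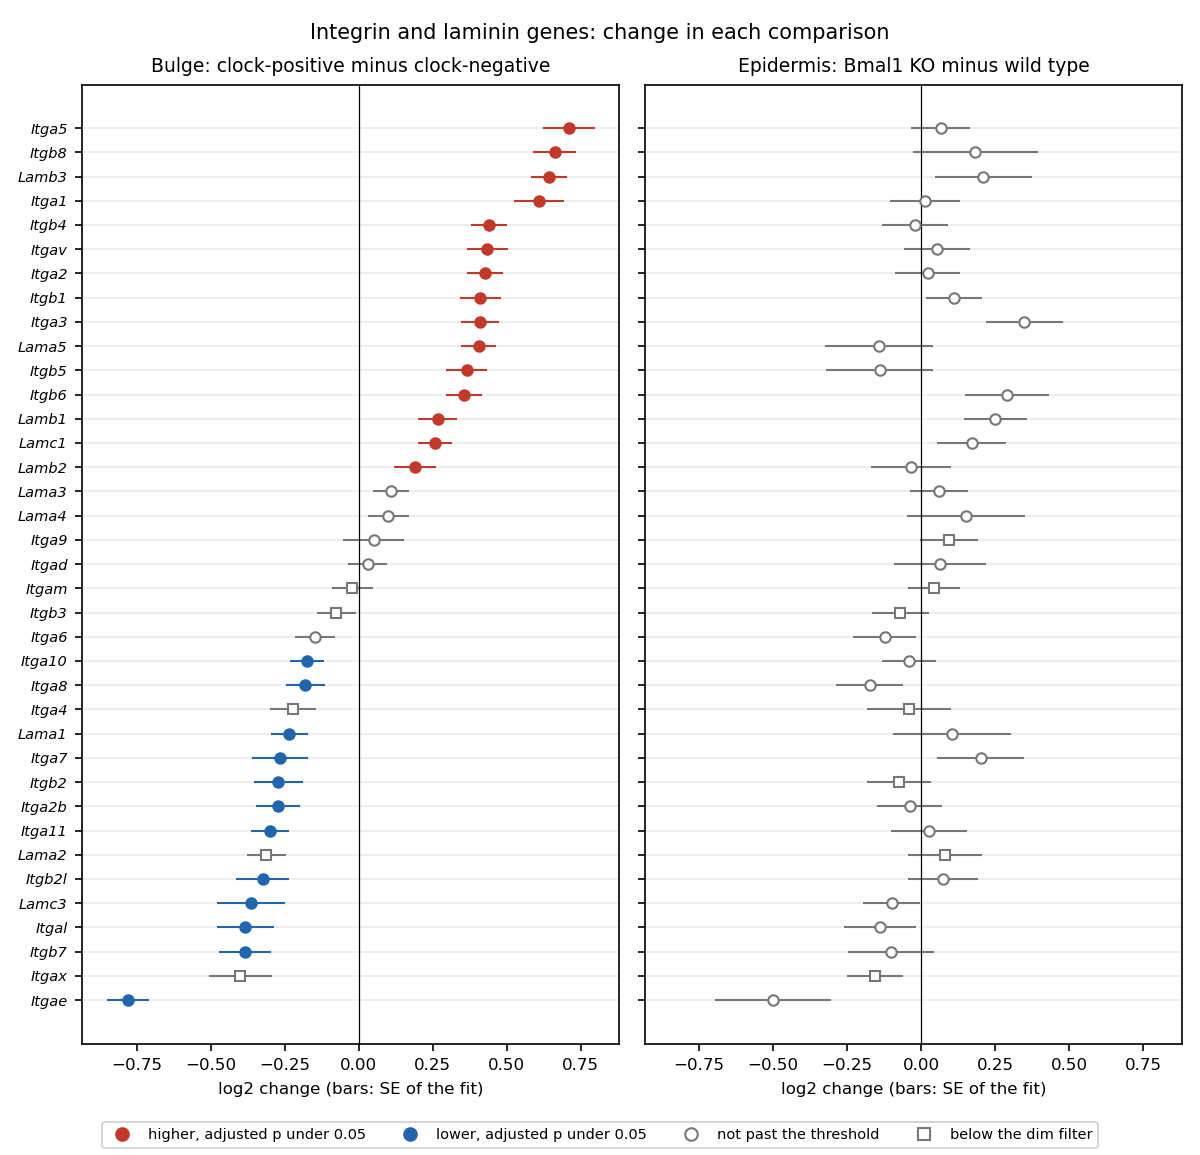
The log2 change of each of the 37 genes is plotted on the x axis, with the SE of the fit as bars, for clock-positive minus clock-negative bulge cells on the left and Bmal1 KO minus wild-type IFE on the right. Filled points passed the test; in the bulge they run from Itga5 at 0.71 to Itgae at -0.78, and no IFE point is filled.

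The number of falls depended on how the arrays were scaled. Clock-negative arrays had the narrower spread, and in the bulge the change followed the intensity of the probe set: the median over all genes ran from -0.24 in the third of 10 equal classes of intensity to 0.26 in the eighth. Of the 12 genes called lower here, 8 lie in the fourth class, where the median over all genes was -0.22. After quantile normalization 14 rose and 3 fell (43.8% and 9.38% of 32, beside 29.5% and 12.2% of all genes), and after cyclic loess 13 rose and 5 fell (40.6% and 15.6%, beside 25.3% and 15.8%). Median centring gave 17 and 3 (53.1% and 9.38%, beside 64.0% and 9.71%). With the values as deposited and all 3 of these scalings, 12 genes were called higher each time: Itga1, Itga2, Itga3, Itga5, Itgav, Itgb1, Itgb4, Itgb6, Itgb8, Lama5, Lamb1 and Lamb3. Itgae alone was called lower each time. The scalings moved the median of all genes from 0.15 to 0.07 with quantile normalization, 0.04 with loess and 0.29 with median centring.

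**Figure D2:**
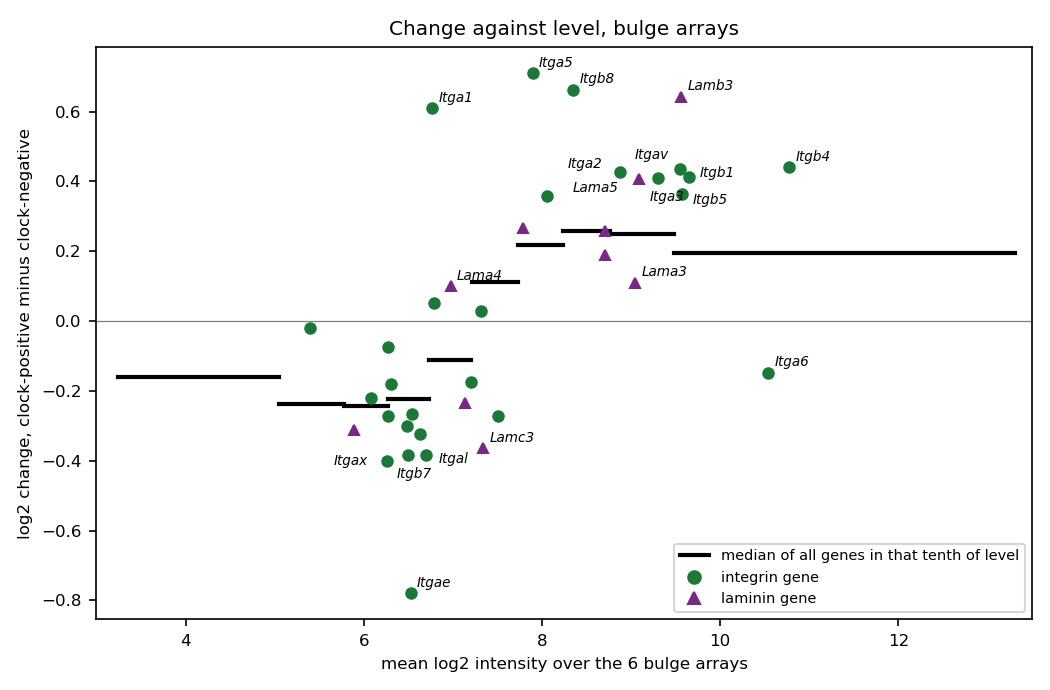
The mean log2 intensity over the 6 bulge arrays is on the x axis and the log2 change, clock-positive minus clock-negative, on the y axis, with 1 point for each of the 37 genes and a black bar at the median of all genes in each of 10 equal classes of intensity. Itga1, Itga5 and Lamb3 lie furthest above the bar of their class, at 0.72, 0.49 and 0.45 over it, and Itgae lies 0.56 below.

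Laminin receptors of the basal keratinocyte did not move together. Itgb4, the beta chain of the hemidesmosome, stood at 10.97, 10.98 and 11.04 in clock-positive and at 10.59, 10.56 and 10.52 in clock-negative bulge cells. The groups did not overlap, and Itgb4 rose by 0.44 ± 0.06 (SE, 3 arrays a group; limma adjusted p = 0.000229). Itga6, its only alpha partner, measured 10.51, 10.50 and 10.39 against 10.65, 10.52 and 10.66. Here the clock-positive values were the lower ones, though by little, and the difference of -0.15 ± 0.07 did not pass (limma adjusted p = 0.0766). It passed as a fall after quantile normalization (-0.26, limma adjusted p = 0.00639) and loess (-0.32, 0.00226) and came to -0.01 with median centring (0.951). As cells were gated on the alpha6 protein, the range of Itga6 between the groups was open to that gate, and its part in the result was not tested. Itga3, the alpha chain of the pair that binds the same laminin outside hemidesmosomes, read 9.50, 9.47 and 9.57 against 9.17, 9.04 and 9.10. Itgb1, the beta chain shared by most epidermal integrins, read 9.87, 9.84 and 9.86 against 9.54, 9.32 and 9.48. Both were higher in every clock-positive array and rose by a like amount, Itga3 by 0.41 ± 0.06 and Itgb1 by 0.41 ± 0.07 (limma adjusted p = 0.000508 and 0.000834). Itga7, which pairs with Itgb1 as the laminin receptor of muscle, ran the other way, at 6.19, 6.47 and 6.56 against 6.63, 6.77 and 6.60. It was called lower (-0.27 ± 0.10, adjusted p = 0.0321) as deposited and under none of the 3 other scalings.

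Among the collagen receptors Itga2 and Itga1, neighbouring genes on chromosome 13, rose, and Itga10 and Itga11 fell. Itga2, the alpha chain of the keratinocyte collagen receptor, measured 9.13, 9.04 and 9.08 in clock-positive cells and 8.70, 8.64 and 8.63 in clock-negative cells. Itga1, which binds collagens including that of basement membranes, measured 7.24, 6.96 and 7.03 against 6.43, 6.58 and 6.39. Neither overlapped between groups. Itga2 rose by 0.43 ± 0.06 and Itga1 by 0.61 ± 0.08, a fold of 1.53 (limma adjusted p = 0.000288 and 0.000243). The other collagen receptor chains were dimmer and fell as deposited, Itga11, known from fibroblasts, by 0.30 ± 0.06 and Itga10, known from cartilage, by 0.17 ± 0.06 (limma adjusted p = 0.00280 and 0.0243). Neither was called lower under any of the other scalings.

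Receptors for fibronectin and for latent TGF-beta were mostly higher. Itga5, the alpha chain of the classical fibronectin receptor, had the largest rise of the 37 genes: 8.17, 8.39 and 8.20 in clock-positive cells against 7.64, 7.61 and 7.37. All clock-positive values exceeded all others by a wide gap, and the change was 0.71 ± 0.09, a fold of 1.64 (limma adjusted p = 0.000133). Itgav, the alpha chain that joins several beta chains, was at 9.77, 9.76 and 9.77 against 9.45, 9.25 and 9.29 and rose by 0.44 ± 0.07 (limma adjusted p = 0.000527). Each of its epithelial beta partners rose too. Itgb8, which with Itgav activates latent TGF-beta, stood at 8.67, 8.75 and 8.62 against 8.14, 7.95 and 7.97, a change of 0.66 ± 0.07 or 1.58-fold (limma adjusted p = 6.17e-05). Itgb6, the epithelial partner that also activates TGF-beta, stood at 8.21, 8.26 and 8.23 against 7.93, 7.88 and 7.83, a change of 0.36 ± 0.06 (0.000782). Itgb5, the vitronectin-binding partner, stood at 9.70, 9.74 and 9.82 against 9.48, 9.33 and 9.35, a change of 0.37 ± 0.07 (0.00136). None of these beta chains overlapped between the groups, though Itgb5 was no longer called after loess. Itga9, a receptor for tenascin, overlapped between groups, at 6.87, 6.83 and 6.75 against 6.90, 6.91 and 6.49, a change of 0.05 ± 0.10 (adjusted p = 0.681). Itga8, the nephronectin receptor of smooth muscle, measured 6.29, 6.19 and 6.15 against 6.34, 6.40 and 6.44. It was called lower as deposited (-0.18 ± 0.07, adjusted p = 0.0333), and its sign turned after quantile normalization and loess.

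**Figure D3:**
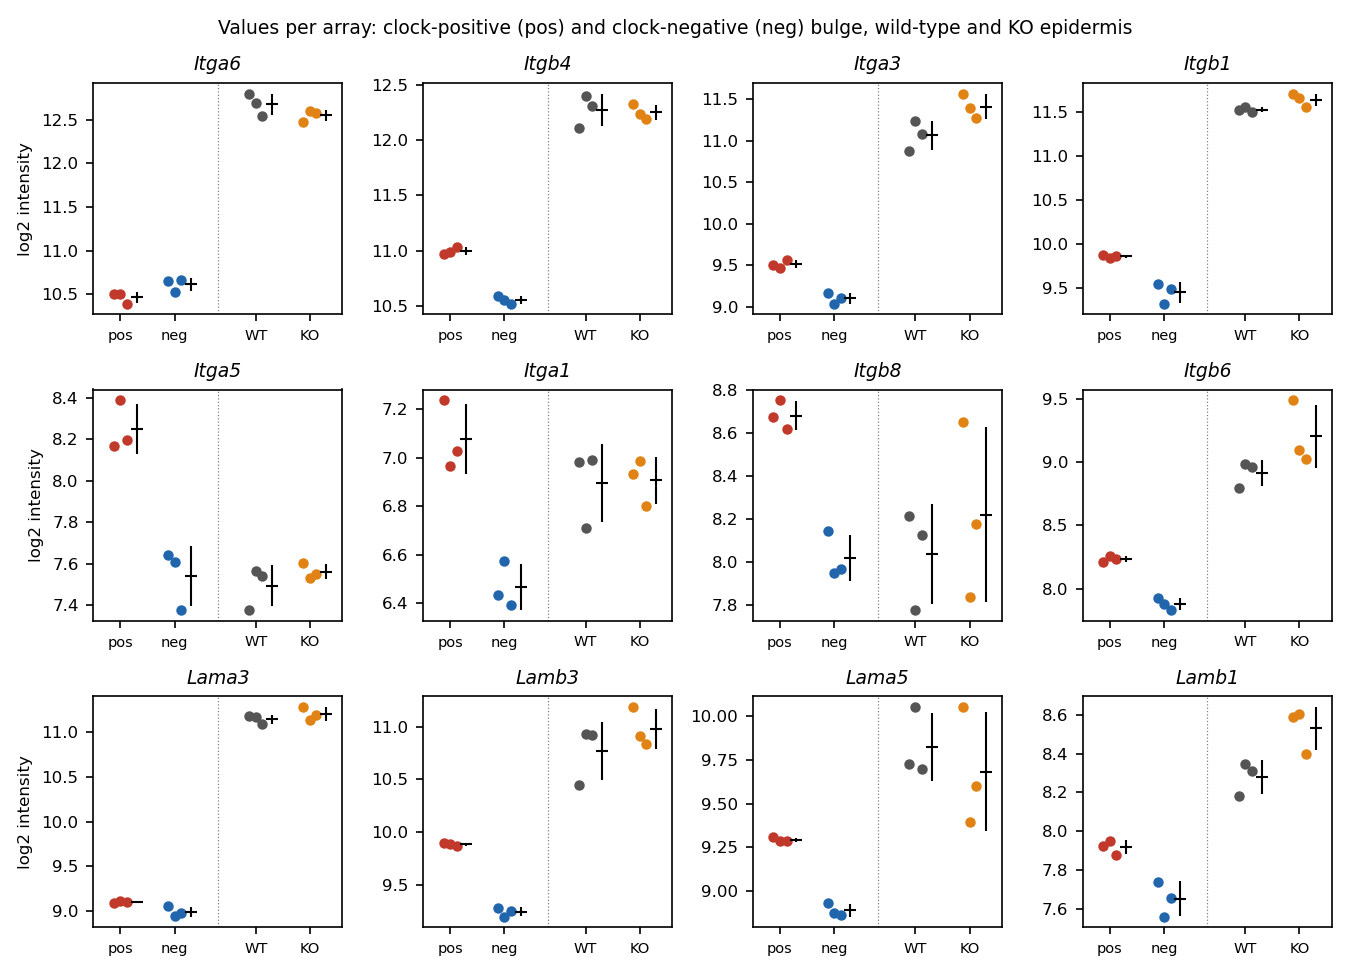
The log2 intensity of 12 of the genes is plotted for every array, with a point for each array, a tick at the mean of a group's 3 arrays, a vertical bar of 1 SD to each side, the 4 groups on the x axis and a separate y axis in each panel. The dotted line parts bulge from IFE, whose levels are not compared. In the bulge the clock-positive points of Itga5, Itgb8 and Lamb3 lie above all clock-negative points and those of Itga6 below, while in IFE the KO and wild-type points of these genes overlap.

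The laminin chains of the epidermal basement membrane split by chain. Lamb3, the beta chain found in the laminin of hemidesmosomes, was at 9.90, 9.89 and 9.87 in clock-positive and 9.28, 9.19 and 9.25 in clock-negative cells. It had the lowest p of all rises among the 37 genes, with a change of 0.64 ± 0.06 or 1.56-fold (limma adjusted p = 1.99e-05). Lama3, the alpha chain of that laminin, was at 9.09, 9.11 and 9.10 against 9.05, 8.94 and 8.98. The groups stood apart by very little, and the change of 0.11 ± 0.06 did not pass (limma adjusted p = 0.134). It passed with median centring (0.25) and came to -0.08 and -0.12 with quantile normalization and loess, where it did not. Lama5, Lamb1 and Lamc1, the chains of the broadly distributed basement membrane laminin, all rose. Lama5 measured 9.31, 9.29 and 9.29 against 8.93, 8.87 and 8.86 and rose by 0.41 ± 0.06 (limma adjusted p = 0.000333). Lamb1 measured 7.93, 7.95 and 7.88 against 7.74, 7.56 and 7.66 and rose by 0.27 ± 0.07 (0.00623). Lamc1, the gamma chain shared by most laminins, measured 8.84, 8.87 and 8.81 against 8.59, 8.57 and 8.59 and rose by 0.26 ± 0.06 (0.00376). These chains did not overlap between groups, but the rise of Lamc1 was 0.0017 above the median of all genes in its intensity class, and it was not called after quantile normalization or loess.

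The remaining laminin chains moved less or in the other direction. Lamb2, the beta chain of vessel and nerve laminins, was at 8.77, 8.90 and 8.74 against 8.70, 8.53 and 8.61. It was called higher by a narrow margin (0.19 ± 0.07, limma adjusted p = 0.0366), and its sign turned after loess. Lama4, an endothelial chain, was at 6.92, 7.09 and 7.08 against 6.94, 6.86 and 6.98 and overlapped between groups (0.10 ± 0.07, 0.225), though it was called higher under the other 3 scalings. Lama1, an alpha chain of early embryos, was at 7.01, 7.01 and 7.05 against 7.29, 7.29 and 7.19 and was called lower (-0.23 ± 0.06, 0.00824). Lamc3 was at 6.99, 7.28 and 7.21 against 7.26, 7.60 and 7.72. Its groups overlapped in 1 array, yet limma called it lower (-0.36 ± 0.12, 0.0189). Both were called lower after loess too. Lama2, the chain of muscle and dermal laminin, was below the filter on dim genes in both sets.

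**Figure D4:**
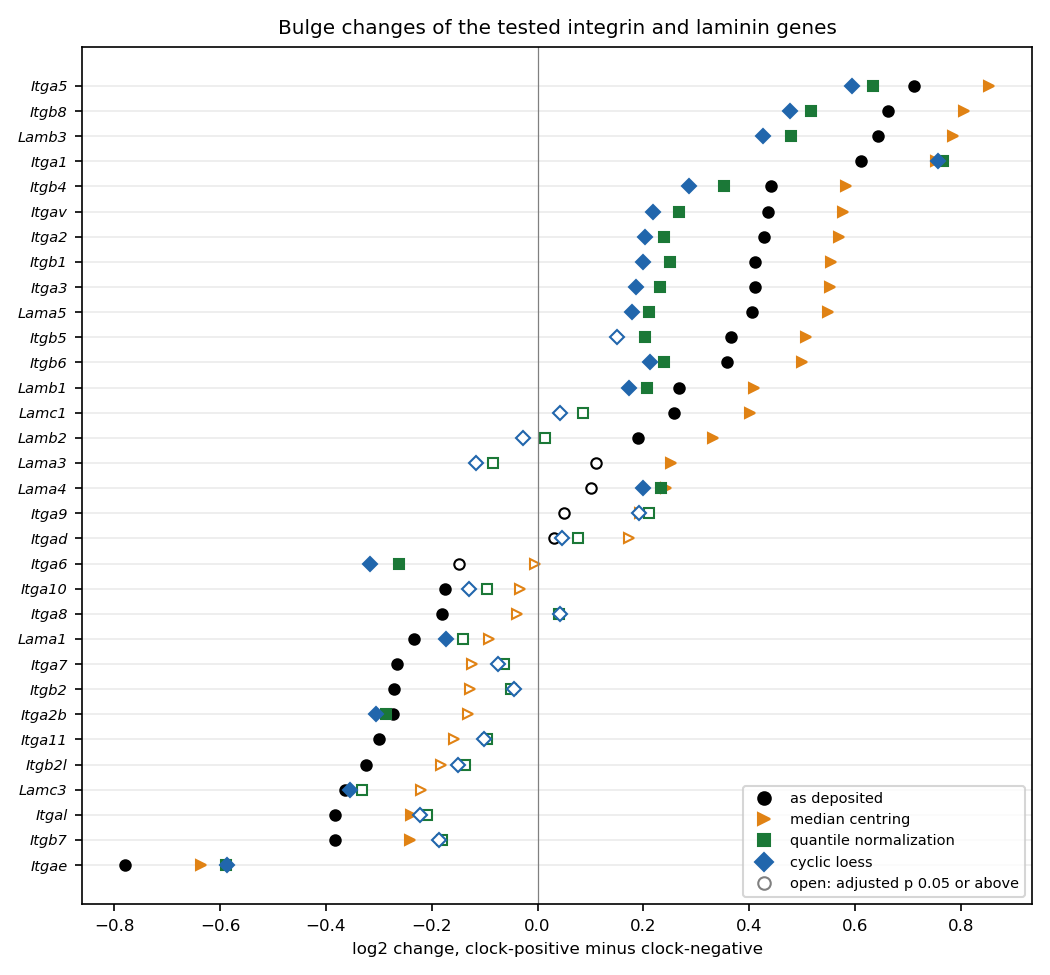
For each gene tested in the bulge, the log2 change between clock-positive and clock-negative cells is plotted on the x axis under 4 scalings of the arrays, with filled symbols where the test was passed. The 4 symbols of Itgae all lie left of 0 and filled, those of the 12 genes called higher each time lie right of it and filled, and those of Itga8, Lamb2 and Lama3 lie on both sides.

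Of the 12 falls, 5 were of leukocyte integrin chains: Itgae, Itgb7, Itgal, Itgb2 and Itgb2l. Itgae, the alpha chain that skin T cells use to bind E-cadherin on keratinocytes, stood at 6.01, 6.20 and 6.21 in clock-positive and 6.88, 6.98 and 6.90 in clock-negative cells. The clock-negative values were all higher, and Itgae fell by 0.78 ± 0.07 on the log2 scale, a fold of 1.72 (limma adjusted p = 1.95e-05). Itgb7, its only beta partner, stood at 6.22, 6.30 and 6.38 against 6.70, 6.84 and 6.51 (-0.38 ± 0.09, adjusted p = 0.00367). Itgal, the alpha chain of the lymphocyte adhesion receptor for ICAMs, stood at 6.53, 6.62 and 6.36 against 6.71, 7.07 and 6.89 (-0.38 ± 0.10, 0.00661). Neither overlapped between groups, and both were called lower with median centring but not after quantile normalization or loess. Itgb2, the beta chain of that receptor and of the myeloid integrins, measured 6.10, 6.11 and 6.20 against 6.39, 6.57 and 6.27 and was called lower as deposited (-0.27 ± 0.08, 0.0150). Itgb2l, a relative of Itgb2 known from neutrophils, measured 6.40, 6.46 and 6.54 against 6.71, 6.998 and 6.65 (-0.32 ± 0.09, 0.0104). These falls did not pass under the other 3 scalings. Itgam, Itgax, Itga4 and Itgb3 were below the dim filter, with differences of -0.02, -0.40, -0.22 and -0.07. Itgad gave 0.03 ± 0.07 (adjusted p = 0.701) in its brighter probe set and -0.15 in the other, so its probe sets differed in sign with neither past the threshold. Itga2b, the platelet alpha chain that pairs with Itgb3, stood at 7.43, 7.36 and 7.34 against 7.60, 7.79 and 7.56 and was called lower as deposited, after quantile normalization and after loess (-0.27 ± 0.07, 0.00924 as deposited).

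Markers of leukocytes mostly fell in clock-positive cells too, and those of vessels mostly rose. Their counts stand beside 45.2% of all genes called higher and 18.3% lower as deposited, and beside the shares given above for the other scalings. Of 11 T cell markers on the array 7 were tested, and all 7 fell in clock-positive cells under all 4 scalings, with a median of -1.16. Cd3g, part of the signalling complex of the T cell receptor, averaged 7.50 against 9.19, and Cd3e 7.67 against 8.84. The mean of all 11 was 6.38 to 6.43 in clock-positive and 7.18 to 7.23 in clock-negative arrays. Of 12 myeloid markers tested 8 fell and 2 rose (median -0.57), among them H2-Ab1 at 9.59 against 10.33, and all 7 general leukocyte markers tested fell as deposited, Ptprc from 6.83 to 6.10. With the other scalings the falls were 7 in each for myeloid markers, and for general leukocyte markers 6, 4 and 6 with quantile normalization, median centring and loess. Of 3 platelet markers tested all fell as deposited and none under the other scalings. The part of leukocytes in the falls of Itgae, Itgb7, Itgal, Itgb2 and Itgb2l was not tested, and in bulk samples fewer cells of a type and less RNA in each cell cannot be told apart. Endothelial markers ran the other way: 10 of 13 tested rose and 0 fell, Cdh5 from 8.34 to 8.96 and Pecam1 from 9.07 to 9.64, and the mean of the 13 was 8.11 to 8.13 in clock-positive against 7.78 to 7.83 in clock-negative arrays. Endothelium also makes Itga1, Itga5, Itgav and Itgb1 and laminin chains, and its part in their rise was not tested. As deposited, fibroblast markers gave 1 rise and 3 falls of 5 tested, smooth muscle and pericyte markers 3 and 1 of 6, Schwann cell markers 0 and 3 of 5 and melanocyte markers 1 and 5 of 6. Under the other scalings the falls came to 0 or 1 for fibroblast and Schwann cell markers, 0 for smooth muscle and 3 for melanocyte markers.

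**Figure D5:**
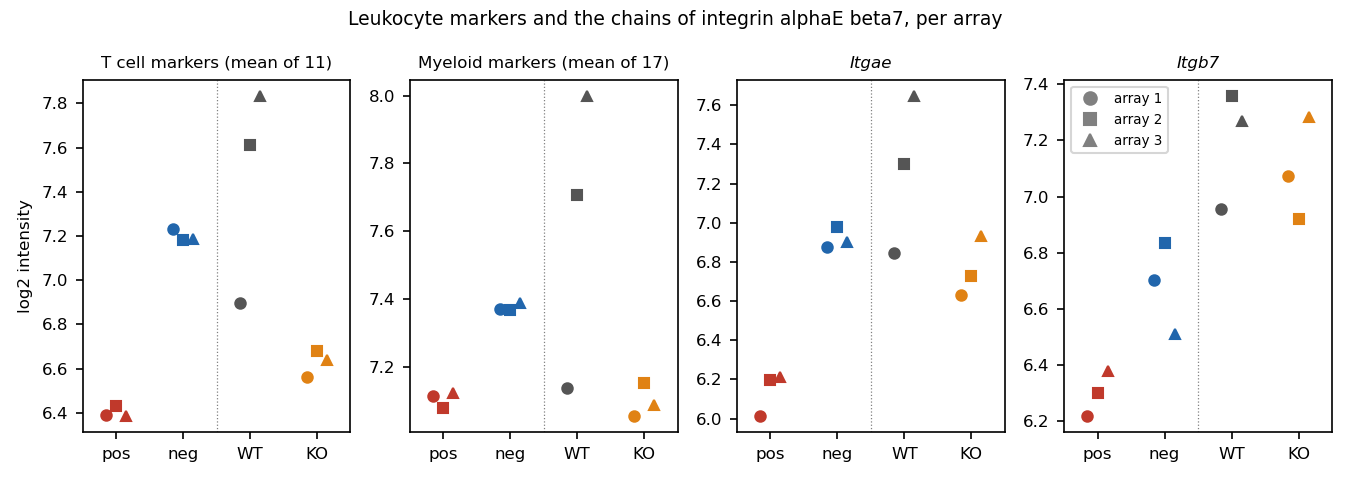
The y axis gives the mean log2 intensity of 11 T cell markers and of 17 myeloid markers, and the log2 intensities of Itgae and Itgb7, with 1 symbol for each array and the 4 groups on the x axis. Itgae and the T cell list are both lower in all clock-positive than in all clock-negative arrays, and in wild-type IFE replicate 1 is the lowest of the 3 for both.

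Of 32 talin, kindlin and focal adhesion genes tested, 25 rose and 1 fell (median 0.32, beside 0.15 over all genes), and 16 rose and 0 fell after loess. Over all genes tested, the shares called were 45.2% higher and 18.3% lower as deposited, and 25.3% and 15.8% after loess. The largest evidence lay with the actin linkers Tns1 (0.91 ± 0.06), Tns3 (1.02 ± 0.07), Tns2 (1.16 ± 0.08) and Actn1 (0.85 ± 0.06). The kindlins, which activate integrins through the beta tail, differed in sign: Fermt1 of epithelia rose by 0.52 ± 0.09 and Fermt2 by 0.44 ± 0.06, while Fermt3 of blood cells was the 1 gene that fell (-0.27 ± 0.07, limma adjusted p = 0.00491), a call that did not hold under all 4 scalings. Of 13 hemidesmosome and laminin receptor partners 9 rose and 1 fell (median 0.24), with 5 and 2 after loess. Cd151, the tetraspanin bound to Itga3 and Itga6, rose by 0.45 ± 0.06, and the hemidesmosome gene Col17a1 by 0.34. Plec and Dst, the plakins that tie hemidesmosomes to keratin, rose by 0.24 and 0.20 as deposited. After loess they came to 0.055 and -0.028, and neither was called under all 4 scalings.

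The lists of matrix genes are to be read beside the 45.2% of all genes called higher and the 18.3% called lower. Of 29 basement membrane genes other than laminins 18 rose and 3 fell (median 0.37), with 16 and 2 after loess. Hmcn1 (1.12 ± 0.07), Sparc (0.91 ± 0.06) and Npnt (0.84 ± 0.07), the nephronectin that Itga8 binds, were among them. Of 34 integrin ligands other than laminins 20 rose and 6 fell (median 0.35), with 16 and 5 after loess. Fn1, the fibronectin that Itga5 binds, rose by 0.42 ± 0.07, Tnc, a ligand of Itga9, by 0.77 ± 0.06, and Tgfb1, whose latent form Itgav pairs bind, by 0.49 ± 0.06. Cdh1, the E-cadherin that Itgae binds, gave 0.13 and did not pass (limma adjusted p = 0.0798). Of 14 matrix proteases and inhibitors 8 rose and 2 fell (median 0.22), with Timp2 at 1.37 ± 0.06 and Mmp9 at -0.46.

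In Bmal1 KO against wild-type IFE, no integrin or laminin gene passed the test. Of 30 genes tested 0 were called higher, beside 0.0788% of 13956 genes, and 0 lower, beside 0.115%, so that 0 of 30 stand beside 0.193% in either direction. At an unadjusted p under 0.05 limma picked 3 of the 30 (Itga3 and Lamb1 higher, Itgae lower), beside 7.96% of all genes. The changes ran from -0.50 to 0.35 with a median of 0.04, beside -0.01 over all genes, and SEs from 0.09 to 0.21 were larger than the 0.06 to 0.12 of the bulge. All KO values lay above all wild-type values for Itga3, Itgb1, Itgb6 and Lamb1, 4 of 30 genes beside 4.11% of all genes, and below them for 0, beside 8.56%.

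The laminin receptors of basal cells differed little in KO IFE. Itga6 measured 12.48, 12.60 and 12.58 in KO and 12.80, 12.69 and 12.55 in wild-type cells, and Itgb4 12.32, 12.24 and 12.19 against 12.11, 12.40 and 12.31. Both overlapped between genotypes, at -0.12 ± 0.11 and -0.02 ± 0.11 (limma adjusted p = 0.912 and 0.995). Itga3 was at 11.57, 11.39 and 11.27 against 10.88, 11.23 and 11.08. It was higher in all KO arrays, at 0.35 ± 0.13, the highest value of the 30, and did not pass (limma adjusted p = 0.502). Itgb1 was at 11.70, 11.65 and 11.55 against 11.51, 11.55 and 11.50 (0.11 ± 0.10, 0.912). Itgb6 was at 9.49, 9.10 and 9.03 against 8.79, 8.98 and 8.96 (0.29 ± 0.14, 0.707). Lamb1 was at 8.59, 8.60 and 8.40 against 8.18, 8.35 and 8.31 (0.25 ± 0.11, 0.613). The nearest arrays of the 2 genotypes all but touched in Itgb1 and lay close in Itga3, Itgb6 and Lamb1.

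Genes with the largest rises in the clock-positive bulge did not pass in IFE, where their SEs were larger. Itga5 was at 7.60, 7.53 and 7.55 in KO and 7.38, 7.57 and 7.54 in wild-type cells (0.07 ± 0.10, limma adjusted p = 0.968). Itgb8 was at 8.65, 7.84 and 8.17 against 8.21, 7.77 and 8.13 (0.18 ± 0.21, 0.939). Lamb3 was at 11.19, 10.91 and 10.84 against 10.45, 10.93 and 10.93 (0.21 ± 0.16, 0.893). Groups overlapped in each, and KO replicate 1 was the highest KO array for all of these genes. Itga1 overlapped too, at 6.93, 6.99 and 6.80 in KO against 6.98, 6.71 and 6.99 in wild type (0.01 ± 0.12, limma adjusted p = 0.997). Lama5 was at 10.06, 9.39 and 9.60 against 9.73, 10.05 and 9.70 (-0.14 ± 0.18, 0.954), and Lamc1 at 10.07, 9.80 and 9.73 against 9.65, 9.76 and 9.68 (0.17 ± 0.12, 0.858). Of the 15 genes that rose in clock-positive bulge cells, 11 had a KO change above 0, from -0.14 to 0.35 over the 15, beside 53.7% of the 6131 genes called higher in the bulge and tested in both.

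Itgae was lower on average in KO than in wild-type IFE, with overlap. It measured 6.63, 6.73 and 6.93 in KO and 6.85, 7.30 and 7.65 in wild-type cells (-0.50 ± 0.20, limma adjusted p = 0.538). The wild-type arrays spread over more than the KO arrays, and replicate 1 was the lowest of them. The mean of the 11 T cell markers followed the same order in wild type, at 6.90, 7.61 and 7.83. In KO it stood at 6.56, 6.68 and 6.64, not in the order of Itgae. Myeloid markers stood at 7.14, 7.71 and 7.999 in wild type against 7.05, 7.15 and 7.09 in KO. Their part in the Itgae values was not tested. Itgb7 (-0.10) and Itgal (-0.14) were not called. In the pathway lists 0 genes were called in KO IFE with the exception of Thy1, a ligand of leukocyte integrins, which rose by 1.19 ± 0.12 (limma adjusted p = 0.0155).

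The changes of the 2 comparisons were set against each other in 1 fit of all 12 arrays, as clock-positive minus clock-negative, less wild type minus KO. The 2 comparisons share no arrays but differ in tissue, age and pool size. The difference passed for 14 of 30 genes (46.7%), 11 integrins and 3 laminins, beside 16.7% of the 13100 genes tested in both. It was above 0 for 12, led by Lamb3 (0.85), Itgb8 (0.85), Itga5 (0.78) and Itga3 (0.76), and below 0 for Itgae (-1.28) and Itgal (-0.52). A KO change of the same sign as the bulge change adds to this difference. Of the 14 genes, only Itgb4 had a KO change of the other sign (-0.02). Among the other genes above 0 the KO change ran from 0.01 for Itga1 to 0.35 for Itga3. It was 0.29 for Itgb6 and 0.25 for Lamb1. For Itgae it was -0.50, so Itgae was lower on average in clock-positive and in KO cells. None of these KO changes passed. Itga1, Itga3, Itga5, Itgb1, Itgb6, Lamb1, Lamb3 and Itgae kept the call under all 4 scalings and without any 1 array. With the replicate number as a block 4 of 30 were called, Itga3, Itga5, Itgb8 and Itgae, so Itga1, Itgb1, Itgb6, Lamb1 and Lamb3 did not pass there. For Itga6 (-0.27 ± 0.13, limma adjusted p = 0.134), Lama3 (0.17 ± 0.11, 0.274) and Lama5 (0.26 ± 0.20, 0.337) a difference between the comparisons was not shown as deposited. That of Itga6 passed after quantile normalization (-0.42, limma adjusted p = 0.0254) and loess (-0.47, 0.0127) and came to -0.14 with median centring (0.423).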

How the data were processed

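Arrays were Affymetrix whole-transcript arrays. The deposited values are log2 intensities from RMA, which the submitters' processing notes name; its settings are not given in the sources used here. All 12 columns matched a sample and none were identical. An array has no read depth, so the number of arrays limits the precision. Each sample is a pool of mice per the series design; nothing more is said of how separate the pools of a group were, so p-values measure the spread between these samples, which may be technical.

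Probe sets were named with the platform's gene symbols, and all 37 genes matched the RefSeq gene table, with 0 symbols changed. A gene with several probe sets was read by the one filled on all 12 arrays and then by the highest mean. The dimmest 30% of genes by mean were dropped from each comparison. The tests were fitted with limma 3.58.1 (lmFit and eBayes, two-sided) in R 4.3.3; p-values were adjusted over all genes by Benjamini-Hochberg, with a threshold of 0.05. The ± values are SEs from limma. The procedure was tested on simulated data.

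All integrin and laminin genes could be named. Other genes were up to 4 of each pathway list with the smallest p. A few more were chosen after their values were seen. These were Arntl, Per1, Dbp, Krt5, Cd34, Fermt1, Fermt2, Fermt3, Npnt, Fn1, Tnc, Tgfb1, Cdh1, Mmp9, the hemidesmosome genes and the cell type markers. The genes, the 5 pathway lists and the 12 marker lists were chosen with earlier results of these data known. Alternatives were other scalings, dim filters, fits, the replicate number as a block and leaving out each array.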

Additional observations from a re-analysis of the deposited data

Results flagged for a closer look

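For 14 genes the difference between the bulge and IFE comparisons passed its own test. That test was limma on all 12 arrays, clock-positive minus clock-negative, less wild type minus KO. The count was 10 after quantile normalization or loess. Itga2, Itgb4, Lamc1 and Itgal were lost both times, Itgb8 with quantile normalization and Itgav with loess. Itga6, not among the 14, was called under both of these scalings. With the replicate number as a block the count was 4, and without some single arrays it was 8. Both sets differ in tissue, age and pool size as well, and the bulge groups differ in stem cell, T cell and endothelial markers. The part of any of these in the differences was not tested. Among receptors of keratinocyte matrix, the difference was 0.76 ± 0.15 for Itga3 (limma adjusted p = 0.00463), 0.52 ± 0.12 for Itgb1 (0.0106), 0.42 ± 0.13 for Itgb4 (0.0360), 0.45 ± 0.13 for Itga2 (0.0280) and 0.62 ± 0.15 for Itga1 (0.0145).

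Among fibronectin and TGF-beta binding chains it was 0.78 ± 0.14 for Itga5 (0.00268), 0.49 ± 0.13 for Itgav (0.0243), 0.65 ± 0.16 for Itgb6 (0.0148) and 0.85 ± 0.23 for Itgb8 (0.0274). Laminin chains gave 0.85 ± 0.18 for Lamb3 (0.00721), 0.52 ± 0.13 for Lamb1 (0.0152) and 0.43 ± 0.13 for Lamc1 (0.0389). In the leukocyte chains it was -1.28 ± 0.22 for Itgae (0.00203) and -0.52 ± 0.16 for Itgal (0.0442).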

How the results depend on the processing

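The 15 genes called higher in clock-positive bulge cells came to 13 to 17 under the other settings and to 14 or 15 without any 1 array, where Lamb2 was the one that could be lost. The 12 called lower came to 3 with quantile normalization, 3 with median centring, 5 with cyclic loess, 2 with the dimmest 50% of genes left out, 7 with all 12 arrays in 1 fit and 9 to 12 without 1 array. Among genes called in the bulge, signs turned in Itga8 (0.040 with quantile normalization, 0.042 with loess) and Lamb2 (-0.027 with loess), without passing the test. That of Lama3, not called as deposited, turned as well (-0.084 with quantile normalization, -0.117 with loess), also without passing there. In IFE the count was 0 under every setting run. Whether replicate numbers pair the bulge samples was not settled. Deviations of same-numbered bulge samples correlated at 0.24, 0.26 and -0.06, against -0.32 to 0.13 for differently numbered ones. In IFE same-numbered samples correlated at -0.44, 0.04 and -0.53, without a sign of pairing. With the number as a block, 15 rose and 12 fell in the bulge, and 4 genes differed between the comparisons in place of 14. That count was 10 with quantile normalization, 13 with median centring and 10 with loess. Without 1 array the 14 ran from 8 to 16, at 8 without any clock-positive replicate or without clock-negative replicate 2 or 3. Signal over background limits the dim chains, 5 of 37 in the bulge and 7 in IFE.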
